A study of Mus musculus with 75 samples.

Results

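The FoxO transcription factors are a family of forkhead proteins with 4 members in mice, Foxo1, Foxo3, Foxo4 and Foxo6. They were taken by gene symbol from a table of 13856 genes measured by RNA sequencing in gastrocnemius, a calf muscle, and all 4 were present. The mice were Balb/c, and each sex formed 5 arms. Control mice received PBS in place of tumour cells and saline as vehicle (PBS saline; 7 female and 8 male libraries). All other mice carried tumours from 1000000 injected C26 cells, a mouse colon carcinoma line, and received saline (C26 saline; 7 and 8), 5-fluorouracil (8 and 8), paclitaxel (7 and 6) or cisplatin (6 and 8). Drugs were given at 75% of the maximum tolerated dose from day 12, in 2 cycles with 2 injections per week, and muscle was collected on day 25 in every arm. There was no arm with a drug and no tumour, so each drug was compared with C26 saline and its effect is seen only in tumour-bearing mice.

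FoxO proteins switch on genes of muscle breakdown. Insulin and IGF-1 act through PI3-kinase and AKT, which phosphorylates FoxO proteins and keeps them out of the nucleus, where 14-3-3 proteins hold them. When this signal weakens, they enter the nucleus and activate the ubiquitin ligase genes Fbxo32 (atrogin-1) and Trim63 (MuRF1) and genes of autophagy. Foxo1 and Foxo3 are the members best known for this role in muscle, Foxo4 is also made there, and Foxo6 was first described in the developing brain. An mRNA level does not show where the protein is or whether it is active.

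The 73 libraries compared held 11.4 M to 40.5 M estimated counts (M, 1000000 counts), with a median of 22.5 M. Estimated counts per library ran from 170 to 5056 for Foxo1, from 267 to 3492 for Foxo3, from 2249 to 9722 for Foxo4 and from 15 to 481 for Foxo6, which therefore carries the largest counting error. All 10 skeletal muscle markers were present, with a summed log2 level of 16.6 to 18.2 in every library. The 6 neutrophil markers moved with the tumour. Their summed log2 level was -0.52 to 1.61 in female PBS saline and 2.14 to 5.11 in female C26 saline, and 0.48 to 3.53 against 3.21 to 4.95 in males. The 7 macrophage markers went from 4.95 to 6.08 in female PBS saline to 5.92 to 6.95 in C26 saline, where 2 passed the test, and in males from 4.91 to 5.71 to 5.42 to 6.93, where 4 passed, all higher. Of 7 B and T cell markers 2 were measured, and 2 fell in females and 1 in males. Of 2 erythroid markers measured, 1 rose in females. Among the 10 muscle markers the male tumour lowered 3, and 5-fluorouracil, paclitaxel and cisplatin raised 3, 4 and 3 in males, while none passed in females. Of all genes, 6.7% passed with the tumour in females and 26.1% in males. With 5-fluorouracil, paclitaxel and cisplatin, 1.35%, 0.0% and 1.66% of all genes passed in females and 23.3%, 31.9% and 15.9% in males. The summed level of the 8 endothelial markers stayed between 8.13 and 8.98 in all 10 groups. Among the 8 endothelial markers the tumour lowered 1 in females, and raised 3 and lowered 2 in males. Paclitaxel raised 2 and lowered 1 of them in males. The part of these markers in the changes below was not tested. Because whole muscle was sequenced, fewer cells of a type and less RNA per cell cannot be told apart. In 19 libraries, genes with GC-rich transcripts read higher than elsewhere (a GC slope above 0.1), and these included 4 of 8 male 5-fluorouracil and 4 of 6 male paclitaxel libraries but none of the 8 male C26 saline libraries. The share of the summed level held by 13 mitochondrial genes had a median of 2.58% in the 19 libraries and 10.5% in the others, and a mean of 5.24% in male paclitaxel against 9.37% in male C26 saline. Its part in the results was not tested. All libraries carry batch 1 in the labels, which do not say which animals were handled on the same day. The p-values therefore reflect the variation among these libraries alone.

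Promoters of 2 of the 4 members, Foxo1 and Foxo3, were in the RefSeq table (GRCm38.p6). They are shown because these members moved together, beside the promoters of Trim63, a known FoxO target, and of Cnksr3, one of the genes closest to both in pattern. Each sequence is the 250 bases before the annotated start, 5′ to 3′ on the gene's strand. Capitals mark every match, on either strand, to the FoxO element GTAAACA, the glucocorticoid receptor palindrome ACANNNTGT, the STAT palindrome TTCNNNGAA or the GC box GGGCGG. The Trim63 promoter lies at chr4:134314870-134315119 on the plus strand and that of Cnksr3 at chr10:7212238-7212487 on the minus strand. The Foxo1 promoter lies at chr3:52268087-52268336 on the plus strand and that of Foxo3 at chr10:42276696-42276945 on the minus strand.
Trim63: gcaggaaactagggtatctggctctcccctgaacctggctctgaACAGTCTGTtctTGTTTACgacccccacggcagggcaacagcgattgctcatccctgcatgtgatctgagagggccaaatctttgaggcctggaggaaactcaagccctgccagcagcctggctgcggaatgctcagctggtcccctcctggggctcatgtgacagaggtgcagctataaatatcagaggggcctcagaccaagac
Cnksr3: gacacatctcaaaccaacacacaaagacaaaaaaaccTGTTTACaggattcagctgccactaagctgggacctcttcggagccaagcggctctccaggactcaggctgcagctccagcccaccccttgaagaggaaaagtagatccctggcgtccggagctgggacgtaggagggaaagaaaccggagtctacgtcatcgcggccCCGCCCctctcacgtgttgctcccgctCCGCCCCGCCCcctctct
Foxo1: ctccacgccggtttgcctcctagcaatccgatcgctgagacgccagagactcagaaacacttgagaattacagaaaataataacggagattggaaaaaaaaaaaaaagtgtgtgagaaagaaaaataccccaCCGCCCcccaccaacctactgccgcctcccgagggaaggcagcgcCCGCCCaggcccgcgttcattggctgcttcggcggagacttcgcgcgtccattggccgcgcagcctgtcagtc
Foxo3: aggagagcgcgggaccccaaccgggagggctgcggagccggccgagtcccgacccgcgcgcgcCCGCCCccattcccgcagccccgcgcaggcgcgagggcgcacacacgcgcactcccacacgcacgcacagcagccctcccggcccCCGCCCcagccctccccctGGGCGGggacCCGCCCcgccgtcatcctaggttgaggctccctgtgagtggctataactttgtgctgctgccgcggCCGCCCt
The Trim63 window held the FoxO element 194 bases before the start, next to a glucocorticoid receptor palindrome that begins at 206, and the Cnksr3 window held the FoxO element at 213. The windows of Pde4d, Plin4, Klhl2, Fkbp5 and Adarb1, the other genes closest to Foxo1 or Foxo3, are not shown and held no FoxO element. Plin4, like Cnksr3, was close to both. The Foxo1 and Foxo3 windows held 2 and 5 GC boxes and no match to the other 3 motifs. Of 32851 promoter windows of this length, 3.17% held the FoxO element, 5.84% the glucocorticoid receptor palindrome, 7.02% the STAT palindrome and 32.7% the GC box. The matches did not overlap each other, except for a pair of GC boxes in Cnksr3. They describe the letters only.

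Per kilobase of the longest annotated transcript, Foxo4 mRNA made up most of the family in every group. In female PBS saline, Foxo4 held 81.0% ± 3.76 (SD, n = 7) of the summed linear level per kb, Foxo3 7.57% ± 1.09, Foxo6 6.57% ± 1.13 and Foxo1 4.88% ± 2.95. In male PBS saline the shares were 84.9% ± 3.72 (SD, n = 8) for Foxo4, 5.64% ± 0.979 for Foxo3, 5.15% ± 1.35 for Foxo6 and 4.33% ± 2.17 for Foxo1. With the tumour the minor members changed places. Foxo1 held 12.8% ± 2.17 (n = 7) in female and 16.2% ± 6.78 (n = 8) in male C26 saline, and Foxo3 held 11.6% ± 1.70 and 10.9% ± 1.98. Foxo6 held 1.73% ± 1.23 in female and 0.589% ± 0.260 in male C26 saline, which is the lowest share of any member in either sex. In the 6 drug groups Foxo1 held 8.55 to 11.2% and Foxo6 1.72 to 2.97%. These shares are descriptions, since the transcript in use may be shorter than the longest one.

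**Figure D1:**
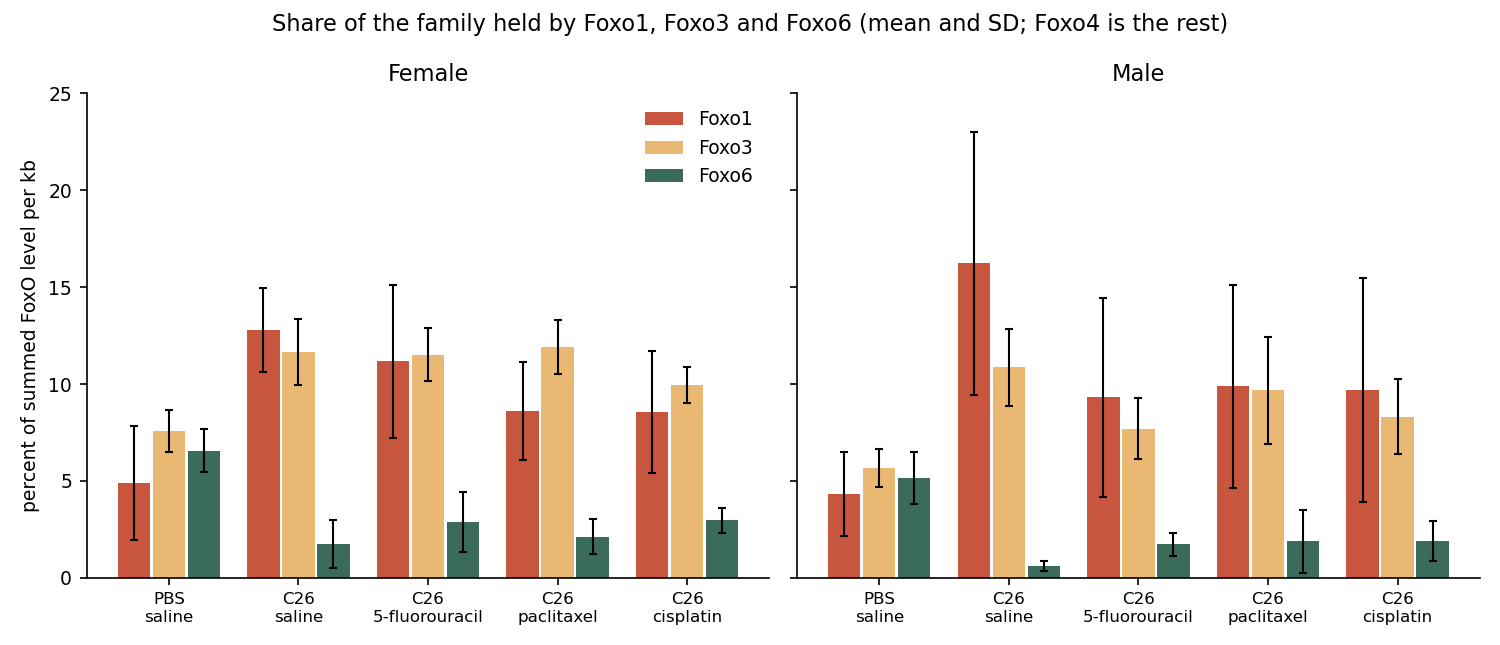
Mean share of the summed FoxO level per kb (vertical axis, percent) held by Foxo1, Foxo3 and Foxo6 in each arm (horizontal axis), females left and males right, with bars for the SD over libraries. In male C26 saline Foxo1 reached 16.2% and Foxo6 fell to 0.589%, from 4.33% and 5.15% in male PBS saline.

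The tumour alone moved 3 members, in the same direction in both sexes. Foxo1 and Foxo3 mRNA rose, Foxo6 mRNA fell, and Foxo4 did not pass the test. All 3 changes passed in females, where 6.7% of all genes passed, and in males, where 26.1% did (limma, Benjamini-Hochberg adjusted p under 0.05 over all genes). Each kept its call in every alternative tried, including the omission of any 1 library.

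Foxo1, which activates atrophy genes and also sets fuel use in muscle, was measured in female PBS saline at log2 CPM (counts per 1000000) of 4.21 to 6.39 (median 4.71) and in female C26 saline at 6.13 to 7.01 (median 6.85). In males it was 3.95 to 5.43 (median 4.24) in PBS saline and 5.08 to 7.50 (median 7.14) in C26 saline. The ranges overlapped in both sexes because of a few libraries. Female PBS saline replicate 4, at 6.39, stood above the next control at 4.95, and 6 of 7 female C26 saline libraries were above every control. Male C26 saline replicates 1 and 2, at 5.08 and 5.09, lay below the other 6, which ran from 6.78 to 7.50 and were above every male control. The log2 change was 1.84 ± 0.43 (SE) in females, 3.59-fold, with adjusted p = 0.00281, and 2.14 ± 0.40 in males, 4.39-fold, with adjusted p = 2.61e-05. In the GENCODE annotation an exon of the predicted gene Gm20402 overlaps Foxo1 on the opposite strand. Whether counting used strand is not given in the sources used here, so reads of the 2 cannot be told apart.

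Foxo3, which activates both the ubiquitin ligases and autophagy genes, separated tumour from control without overlap. Its log2 CPM values were 5.03 to 5.80 (median 5.16) in female PBS saline and 5.83 to 6.59 (median 6.25) in female C26 saline. In males they were 4.57 to 5.09 (median 4.62) and 5.18 to 6.35 (median 6.11). Every tumour library of each sex was above every control of that sex, although male C26 saline replicates 1 and 2, low in Foxo1, were also the lowest 2 here at 5.18 and 5.29. The log2 change was 0.94 ± 0.19 (SE) in females, 1.91-fold, with adjusted p = 0.000705, and 1.19 ± 0.18 in males, 2.29-fold, with adjusted p = 4.56e-07.

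Foxo6 moved the other way, and its groups did not overlap either. Its log2 CPM values were 3.20 to 4.11 (median 3.59) in female PBS saline and 0.77 to 3.11 (median 1.52) in female C26 saline. In males they were 2.49 to 3.66 (median 3.15) and -0.71 to 1.23 (median 0.33). In estimated counts this was 85 to 368 in male controls and 15 to 65 in male tumour libraries. The log2 change was -1.87 ± 0.35 (SE) in females, 3.65-fold lower, with adjusted p = 0.000162, and -2.96 ± 0.33 in males, 7.80-fold lower, with adjusted p = 2.72e-10. With 1 added on the linear scale, which damps low values, the changes were -1.58 and -2.17 on the log2 scale and both kept their call.

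Foxo4, the most abundant member per kb, overlapped throughout. Its log2 CPM values were 7.46 to 7.90 (median 7.54) in female PBS saline and 7.56 to 8.09 (median 7.77) in female C26 saline. In males they were 7.22 to 7.93 (median 7.47) and 7.30 to 7.98 (median 7.42). The log2 change was 0.18 in females (95% interval -0.04 to 0.41, adjusted p = 0.39) and 0.02 in males (-0.19 to 0.22, adjusted p = 0.937). The upper bounds lie below the lower bounds of the intervals for Foxo1 and Foxo3 in the same sex, of which the lowest were 0.55 in females and 0.83 in males, both for Foxo3.

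**Figure D2:**
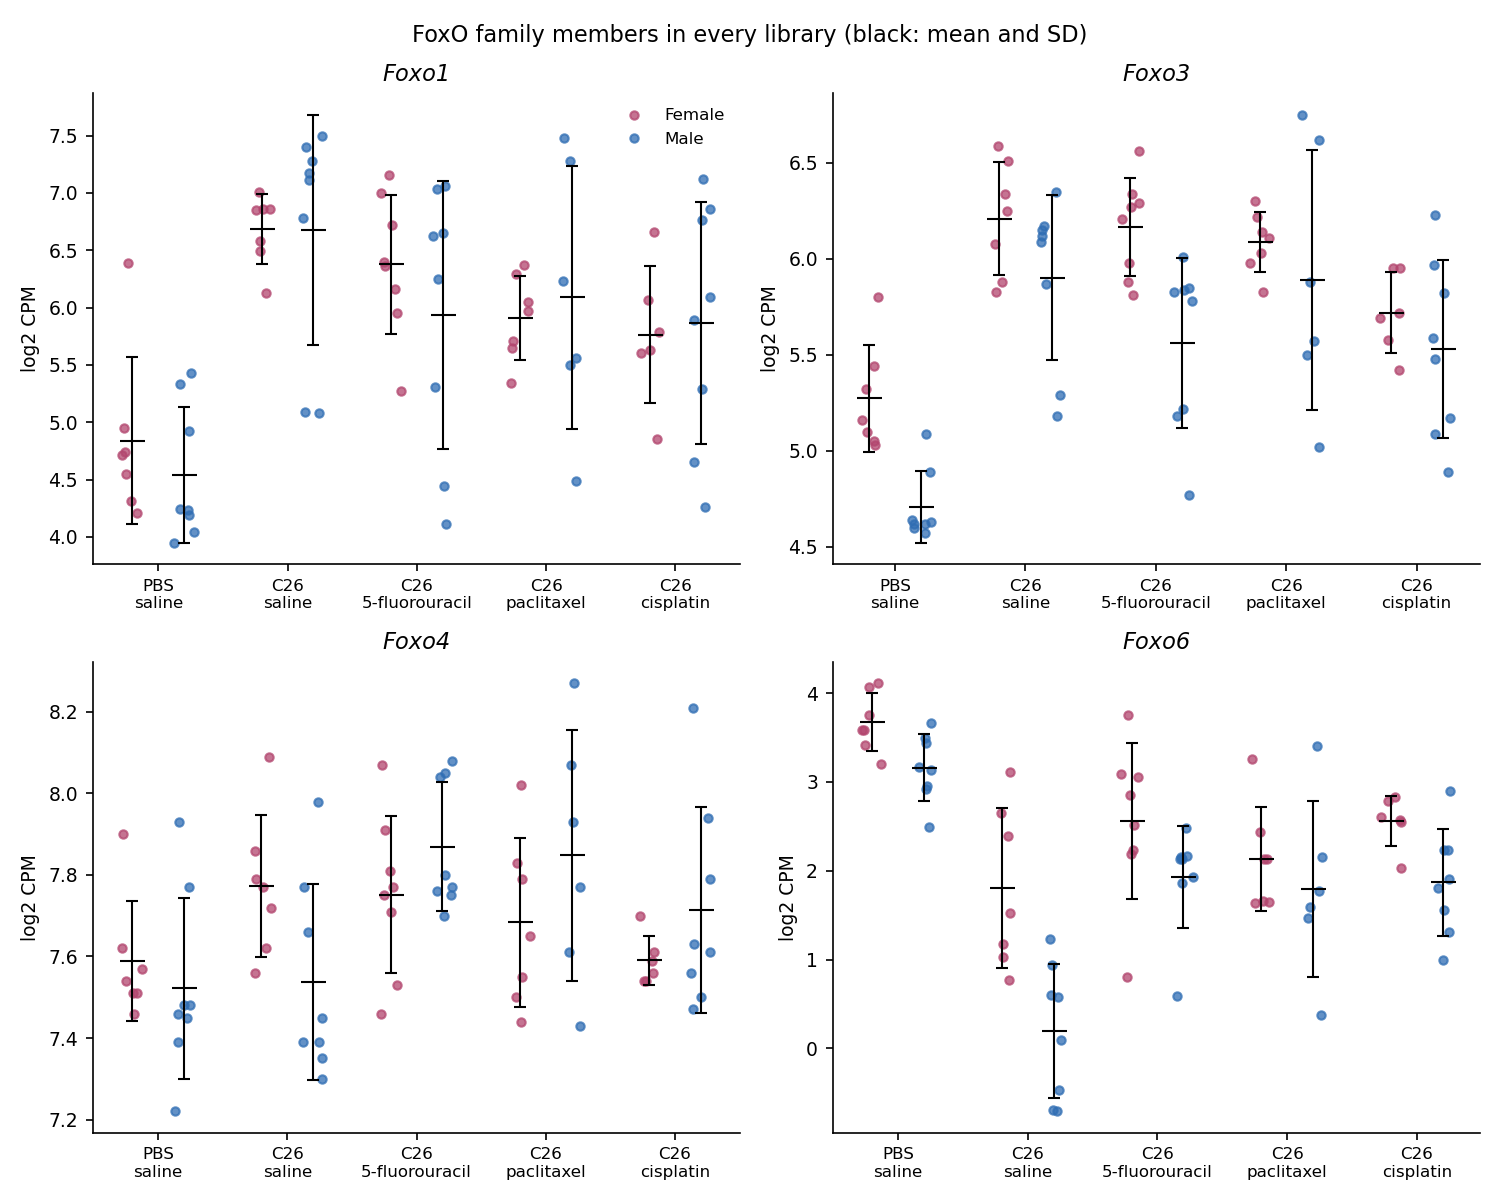
Each point is 1 library, with the arm on the horizontal axis and log2 CPM on the vertical axis, which differs between panels and does not start at 0. Black marks give mean and SD. In males, all 8 C26 saline points of Foxo6 lie at or below 1.23 and all 8 PBS saline points at or above 2.49.

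Foxo6 also changed with chemotherapy. In male tumour-bearing mice all 3 drugs raised it. In females none passed the test. Male log2 CPM values were 0.59 to 2.48 (median 2.13) with 5-fluorouracil, 0.37 to 3.41 (median 1.68) with paclitaxel and 0.99 to 2.90 (median 1.86) with cisplatin, against -0.71 to 1.23 in C26 saline. Of these libraries, 7 of 8, 5 of 6 and 7 of 8 lay above every C26 saline library, and the exceptions were 5-fluorouracil replicate 7, paclitaxel replicate 3 and cisplatin replicate 7.

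The log2 change against male C26 saline was 1.73 ± 0.33 (SE) with 5-fluorouracil (adjusted p = 0.000101, where 23.3% of all genes passed), 1.60 ± 0.35 with paclitaxel (adjusted p = 0.00151, where 31.9% passed) and 1.67 ± 0.33 with cisplatin (adjusted p = 0.000146, where 15.9% passed). As folds these were 3.32, 3.03 and 3.19. The 3 comparisons share the C26 saline libraries, so they are not independent. Without the libraries of high GC slope the changes were 2.04, 1.61 and 1.76, with adjusted p = 0.000211, 0.0305 and 5.87e-05. This removed 4 of 8 libraries with 5-fluorouracil, 4 of 6 with paclitaxel and 2 of 8 with cisplatin. The spread in that fit was estimated over all groups together. The summed neutrophil marker level, which was 3.21 to 4.95 in male C26 saline, was 0.45 to 3.98, 2.86 to 4.88 and 0.016 to 3.47 with 5-fluorouracil, paclitaxel and cisplatin. Of the 6 neutrophil markers, 0 passed with paclitaxel and 6 fell with each of the other drugs.

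Foxo6 did not return to the control level in drug-treated males. It stayed below PBS saline by 1.23 ± 0.33 (SE) on the log2 scale with 5-fluorouracil (adjusted p = 0.0195, 4.76% of genes called), by 1.37 ± 0.35 with paclitaxel (adjusted p = 0.00311, 37.5% called) and by 1.29 ± 0.33 with cisplatin (adjusted p = 0.0316, 0.902% called). The order of the male arms was therefore PBS saline, then the drug arms, then C26 saline. The 3 drug arms did not differ from each other beyond their spread, with differences of -0.14 to 0.07 on the log2 scale and intervals that all lie within -0.84 and 0.78.

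In females the log2 CPM of Foxo6 were 0.80 to 3.75 (median 2.68) with 5-fluorouracil, 1.64 to 3.26 (median 2.13) with paclitaxel and 2.03 to 2.83 (median 2.59) with cisplatin, against 0.77 to 3.11 in C26 saline. All 3 groups overlapped with C26 saline. The log2 change was 0.75 ± 0.34 (SE) with 5-fluorouracil (adjusted p = 0.393, where 1.35% of all genes passed), 0.32 ± 0.35 with paclitaxel (adjusted p = 0.999) and 0.75 ± 0.36 with cisplatin (adjusted p = 0.259, where 1.66% passed). In female paclitaxel against C26 saline limma called 0 of 13856 genes (0.0%), with 845 at an unadjusted p under 0.05. Cisplatin passed with quality weights, at a change of 0.80 and adjusted p = 0.0323. The female order was PBS saline, cisplatin and 5-fluorouracil at the same mean of 2.56, paclitaxel at 2.13 and C26 saline at 1.81. Against PBS saline, paclitaxel was lower by the test (-1.55 ± 0.35, adjusted p = 0.00319, 4.58% called). 5-Fluorouracil (-1.11, adjusted p = 0.169) and cisplatin (-1.11, adjusted p = 0.235) missed it, in comparisons where 0.383% and 0.209% of genes passed.

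**Figure D3:**
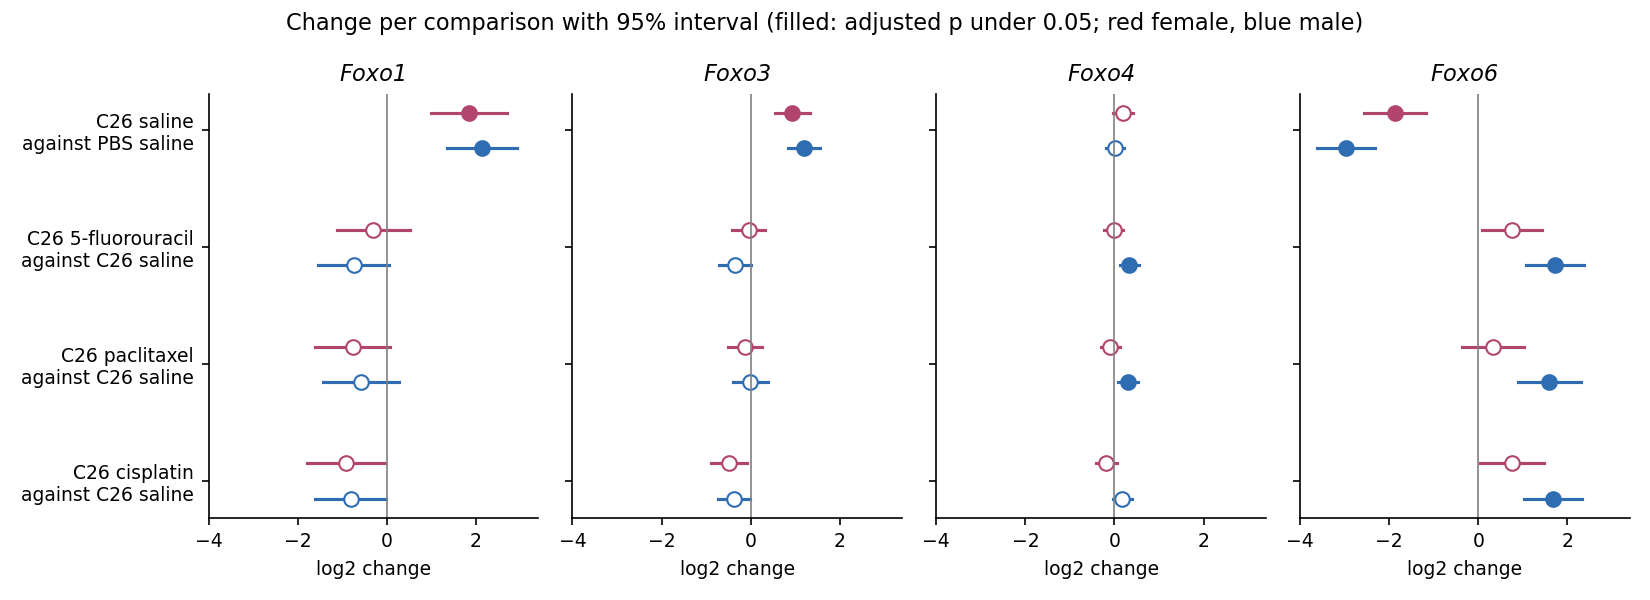
Log2 change (horizontal axis) of each member in the 8 comparisons (vertical axis), with the 95% interval from limma. Filled points passed at adjusted p under 0.05. Foxo6 has filled points left of 0 for the tumour in both sexes and right of 0 for all 3 drugs in males, and Foxo1 and Foxo3 have filled points for the tumour only.

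Foxo1 and Foxo3 did not pass the test with any drug in either sex. Female Foxo1 log2 CPM values were 5.27 to 7.16 (median 6.38) with 5-fluorouracil, 5.34 to 6.37 (median 5.97) with paclitaxel and 4.85 to 6.66 (median 5.71) with cisplatin, against 6.13 to 7.01 in C26 saline. Of the female libraries, 5 of 7 with paclitaxel and 5 of 6 with cisplatin were below every C26 saline library. The log2 changes were -0.30 ± 0.41 (SE), -0.77 ± 0.43 and -0.92 ± 0.44, with adjusted p = 0.92, 0.863 and 0.261. With paclitaxel, Foxo1 was lower in 7 of 7 same-numbered pairs, and with the replicate block limma gave an adjusted p of 0.807. A fit of the cisplatin and C26 saline groups alone called the last, with adjusted p = 0.0334.

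Male Foxo1 was widely spread within each drug group. It ran from 4.11 to 7.06 (median 6.44) with 5-fluorouracil, 4.49 to 7.48 (median 5.89) with paclitaxel and 4.26 to 7.12 (median 5.99) with cisplatin, so that single libraries lay near the control level of 3.95 to 5.43 and others near the upper end of C26 saline. The log2 changes against C26 saline were -0.74 ± 0.40 (SE), -0.59 ± 0.43 and -0.81 ± 0.40, with adjusted p = 0.162, 0.291 and 0.165. Against PBS saline, male Foxo1 was higher with 5-fluorouracil (1.39 ± 0.40, adjusted p = 0.0304) and paclitaxel (1.55 ± 0.43, adjusted p = 0.00537) and missed the test with cisplatin (1.33 ± 0.40, adjusted p = 0.0872). In females none of the 3 passed against PBS saline, with changes of 1.54, 1.07 and 0.93 and adjusted p = 0.0743, 0.15 and 0.551.

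Foxo3 stayed above the controls in 5 of the 6 drug groups. Female values were 5.81 to 6.56 (median 6.24) with 5-fluorouracil, 5.83 to 6.30 (median 6.11) with paclitaxel and 5.42 to 5.95 (median 5.71) with cisplatin, and male values 4.77 to 6.01 (median 5.81), 5.02 to 6.75 (median 5.73) and 4.89 to 6.23 (median 5.53). Female 5-fluorouracil and paclitaxel libraries all lay above every female control, at 5.03 to 5.80. The log2 change against PBS saline was 0.90 ± 0.19 (SE) and 0.81 ± 0.19 for these (adjusted p = 0.00872 and 0.0053) and 0.45 ± 0.20 for female cisplatin, which missed the test (adjusted p = 0.499). In males it was 0.85 ± 0.18, 1.18 ± 0.19 and 0.82 ± 0.18, with adjusted p = 0.0034, 1.85e-05 and 0.0101.

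Against C26 saline the largest Foxo3 differences were -0.49 ± 0.20 in female cisplatin (adjusted p = 0.187) and -0.37 ± 0.18 in male cisplatin (adjusted p = 0.159). Male 5-fluorouracil gave -0.34 ± 0.18 (adjusted p = 0.155), and -0.61 with adjusted p = 0.0237 once libraries of high GC slope were left out. No pair of drugs passed the test in either sex for any member. Of all genes, 0.188%, 0.0% and 0.0217% were called in the female pairs (paclitaxel against 5-fluorouracil, cisplatin against 5-fluorouracil, cisplatin against paclitaxel) and 0.0144%, 0.0% and 0.0144% in the male pairs.

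Foxo4 passed in male mice with 5-fluorouracil and paclitaxel, and these changes went with the GC slope of the libraries. Its male log2 CPM values were 7.70 to 8.08 (median 7.79) with 5-fluorouracil, 7.43 to 8.27 (median 7.85) with paclitaxel and 7.47 to 8.21 (median 7.62) with cisplatin, overlapping the 7.30 to 7.98 of C26 saline. The log2 change was 0.33 ± 0.10 (SE, adjusted p = 0.0165) with 5-fluorouracil and 0.31 ± 0.11 (adjusted p = 0.03) with paclitaxel. Within groups, Foxo4 correlated with the GC slope over the 73 libraries at r = 0.72, against -0.08 for Foxo1, 0.22 for Foxo3 and 0.18 for Foxo6. By sex, r was 0.69 in females and 0.75 in males for Foxo4, and 0.22 and 0.23 for Foxo3. For Foxo6 it was 0.51 in females and -0.10 in males, and for Foxo1 -0.29 and 0.02. Fitted with each library's slope, the changes were 0.17 (adjusted p = 0.1) and 0.04 (adjusted p = 0.832). Without the libraries of high slope they were 0.23 (adjusted p = 0.0538) and -0.02 (adjusted p = 0.955). The paclitaxel call was also lost without any 1 of 7 libraries, which were male C26 saline replicates 1, 5, 7 and 8 and male paclitaxel replicates 1, 2 and 3, at changes of 0.23 to 0.29 and adjusted p of 0.0507 to 0.136.

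Male cisplatin gave 0.18 (adjusted p = 0.267), and the 3 female drug groups gave -0.02, -0.09 and -0.18 (adjusted p = 0.989, 0.999 and 0.392). Foxo4 was also above PBS saline in males with 5-fluorouracil (0.35, adjusted p = 0.04) and paclitaxel (0.33, adjusted p = 0.0207). Libraries of high GC slope were 4 of 8 and 4 of 6 in these drug groups and 2 of 8 in male PBS saline. These comparisons were not refitted with the slope, so its part in them was not tested.

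**Figure D4:**
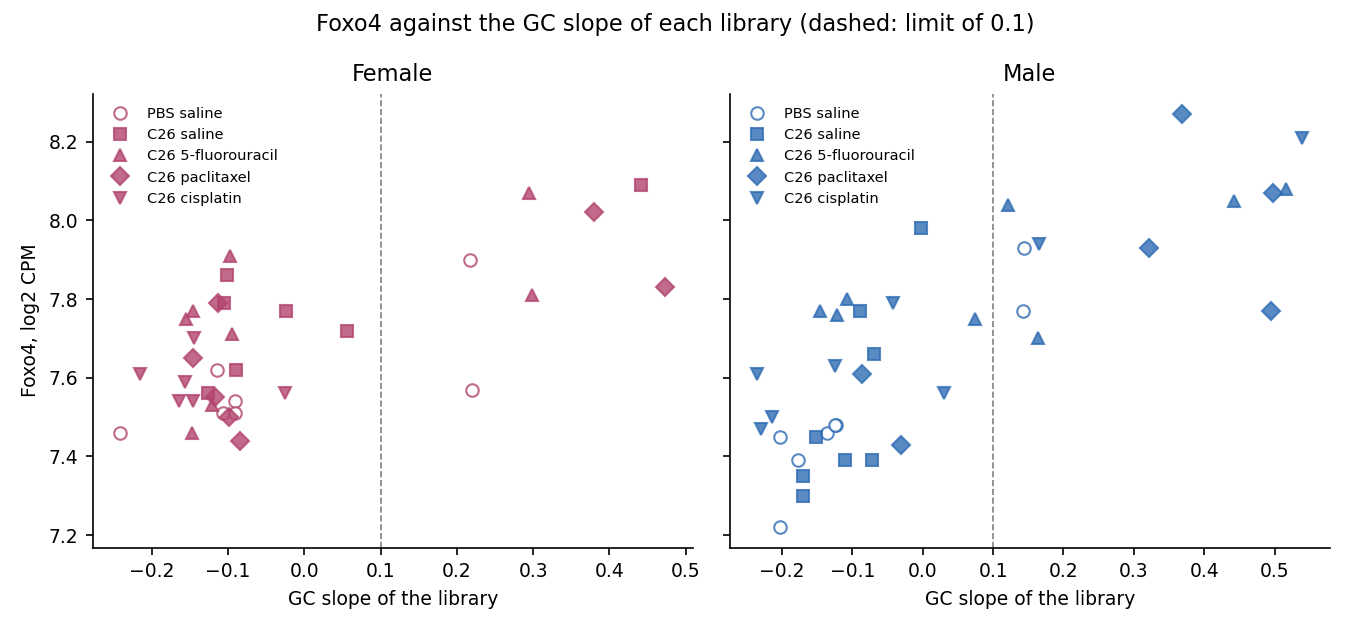
Foxo4 log2 CPM (vertical axis) against the GC slope of each library (horizontal axis), females left and males right, with 1 symbol per arm. The male points right of the dashed limit of 0.1, which include 4 of 8 with 5-fluorouracil and 4 of 6 with paclitaxel and none of C26 saline, lie at 7.70 or above.

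No member differed between the sexes in its response by the test of the difference itself. For Foxo6 the tumour effect in males minus that in females was -1.10 ± 0.48 on the log2 scale (SE, adjusted p = 0.521, where 0.0361% of all genes passed). The drug effects differed by 0.98 ± 0.47 for 5-fluorouracil, 1.28 ± 0.50 for paclitaxel and 0.92 ± 0.49 for cisplatin (adjusted p = 0.332, 0.226 and 0.367, with 0.0% of genes called in each and 2044, 2704 and 1993 at an unadjusted p under 0.05). The calls in males alone are therefore not shown to be particular to males. The intervals run from -2.05 to -0.14 for the tumour and from 0.29 to 2.27 for paclitaxel. With quality weights the paclitaxel difference passed, at 1.46 for Foxo6 (adjusted p = 0.026) and 0.50 for Foxo4 (adjusted p = 0.00799). With the GC slope in the model none of the 16 sex differences of the members passed. The male Foxo4 change with paclitaxel, which enters this difference, went with the slope as given above. For Foxo1 and Foxo3 the 8 sex differences lay between -0.44 and 0.29.

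Ratios of 2 members within a library do not depend on how libraries were scaled, and they showed which members moved apart. The 6 ratios were compared in the 8 comparisons by 48 two-sided exact permutation tests, adjusted together. All 6 changed with the tumour in both sexes, with adjusted p of 0.00186 to 0.0173 by the exact test. Foxo1 over Foxo6 moved furthest, from a log2 ratio of 1.16 ± 0.76 (SD, n = 7) to 4.88 ± 1.13 in females and from 1.38 ± 0.59 (n = 8) to 6.48 ± 1.16 in males. The groups did not overlap, and the exact p of 0.000583 and 0.000155 are the smallest these group sizes allow. Foxo1 rose more than Foxo3, with a change in their log2 ratio of 0.91 in females and 0.94 in males (exact permutation, adjusted p = 0.00777 and 0.0173). The male change was 0.82 and missed the threshold, at adjusted p = 0.0521, without libraries of high GC slope.

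With drugs, the male ratios over Foxo6 came down again. With 5-fluorouracil, Foxo1, Foxo3 and Foxo4 over Foxo6 fell by 2.48, 2.07 and 1.40 on the log2 scale (exact permutation, adjusted p = 0.0043, 0.00332 and 0.00606). With cisplatin Foxo1 and Foxo3 over Foxo6 fell by 2.48 and 2.04, and Foxo4 over Foxo6 fell too (exact permutation, adjusted p = 0.00702, 0.00298 and 0.00547). Paclitaxel gave -2.18, -1.61 and -1.29 (exact permutation, adjusted p = 0.039, 0.0443 and 0.0326). With 1 added on the linear scale they were -1.64, -1.07 and -0.75 and missed the threshold (exact permutation, adjusted p = 0.0694, 0.083 and 0.0694). Without libraries of high GC slope, which removes 4 of the 6 paclitaxel libraries, they were -2.40, -1.83 and -1.63 (exact permutation, adjusted p = 0.0808, 0.0808 and 0.0519). The calls were also lost without any 1 of 9, 9 and 7 of the 14 libraries. Male 5-fluorouracil also lowered Foxo3 over Foxo4, by 0.67 (exact permutation, adjusted p = 0.0194).

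In females paclitaxel separated Foxo1 from Foxo3, although limma called no gene there. The log2 ratio of Foxo1 to Foxo3 was 0.47 ± 0.26 (SD, n = 7) in C26 saline and -0.18 ± 0.36 (n = 7) with paclitaxel, a fall of 0.65 (exact permutation, adjusted p = 0.0043), and it kept its call in every alternative run. Same-numbered libraries of these groups deviated together, and with them paired the ratio was lower in 7 of 7 pairs (exact sign-flip test, adjusted p = 0.0341, from the smallest p that 7 pairs allow). Foxo1 over Foxo4 fell by 0.68 (exact permutation, adjusted p = 0.0213). It was lower in 6 of 7 pairs and missed the threshold when paired (exact sign-flip test, adjusted p = 0.0556). Without libraries of high GC slope it fell by 0.45 (exact permutation, adjusted p = 0.0808). With cisplatin the female ratios of Foxo1 to Foxo4 (-0.73), Foxo1 to Foxo6 (-1.67) and Foxo3 to Foxo6 (-1.24) passed (exact permutation, adjusted p = 0.0326, 0.0326 and 0.0445). Without libraries of high GC slope, of which there was 1 in these groups, they were -0.76, -1.74 and -1.28 and missed the threshold (exact permutation, adjusted p = 0.0519, 0.0519 and 0.0693). Each was also lost without any 1 of 7, 6 and 10 of the 13 libraries. No female ratio passed with 5-fluorouracil.

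Foxo1 and Foxo3 also rose and fell together between libraries of the same group. After each group's mean was subtracted, their Pearson r was 0.711 over 35 female libraries (rho 0.699) and 0.860 over 38 male libraries (rho 0.853). Both had adjusted p = 6e-05 over 12 such relations, from a permutation within groups at the smallest p that 100000 resamples can give. Without the 2 libraries whose Foxo1 value lay farthest from the median of their sex the r was 0.688 and 0.860. They were chosen before group means were subtracted, so they need not be those that stand out within their group. With both genes adjusted for GC slope the r was 0.833 and 0.878. Male C26 saline replicates 1 and 2, low in both genes, are an example, and so is female PBS saline replicate 4, high in both at 6.39 and 5.80. Foxo6 went the other way in females against Foxo1 (r = -0.437, rho = -0.442, permutation adjusted p = 0.0184 and 0.0354), but with GC slope adjusted r was -0.351 (permutation adjusted p = 0.0528). Against Foxo3 its r was -0.330 in females and -0.430 in males (permutation adjusted p = 0.147 and 0.0818). Adjusted for GC slope, the female r was -0.528 (permutation adjusted p = 0.0107) and rho -0.434 (permutation adjusted p = 0.0532). The other 7 relations lay between -0.14 and 0.37 and did not pass.

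Fbxo32 and Trim63, the ubiquitin ligase genes that FoxO proteins activate, were set beside the members after their values were known. In males their log2 CPM values were 7.49 to 8.41 and 7.56 to 8.43 in PBS saline and 8.70 to 11.42 and 8.89 to 11.53 in C26 saline, with no overlap. In females they were 7.15 to 8.02 and 7.43 to 8.36 against 7.49 to 9.99 and 7.95 to 9.93, with overlap, and the changes of 1.04 and 1.05 did not pass (adjusted p = 0.125 and 0.195). Of the drugs, 5-fluorouracil and cisplatin lowered Fbxo32 in males, by 1.26 ± 0.38 (SE) and 1.27 ± 0.38 (adjusted p = 0.0134 and 0.0153), and cisplatin lowered Trim63 by 1.30 ± 0.44 (adjusted p = 0.0325). In females no drug change passed. With 5-fluorouracil, paclitaxel and cisplatin Fbxo32 gave -1.03, -0.89 and -1.28 (limma, adjusted p = 0.248, 0.774 and 0.101). Trim63 gave -0.99, -1.12 and -1.55 there (limma, adjusted p = 0.423, 0.7 and 0.081). Neither ligase differed between the sexes in its tumour or drug response by limma's test of the difference (adjusted p of 0.568 to 0.995).

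Within male groups, Trim63 followed Foxo3 (r = 0.848, rho = 0.839) and Foxo1 (r = 0.719, rho = 0.715), with permutation adjusted p of 0.00016 and 0.00032 over 16 relations. Fbxo32 followed Foxo3 (r = 0.695, rho = 0.699) and Foxo1 (r = 0.501, rho = 0.560) and ran against Foxo6 (r = -0.692, rho = -0.600), with permutation adjusted p of 0.00048, 0.0139 and 0.00056. Trim63 also ran against Foxo6 (r = -0.555, rho = -0.498, permutation adjusted p = 0.00624 and 0.00763). These 6 passed again without the 2 farthest libraries, chosen in the same way by the value of the FoxO member. Trim63 with Foxo4 passed at r = 0.403 and rho = 0.374 (permutation adjusted p = 0.0425 and 0.0476), but not without the 2 farthest libraries (r = 0.216, permutation adjusted p = 0.325) or adjusted for GC slope (r = 0.227, permutation adjusted p = 0.32). In females Trim63 and Fbxo32 followed Foxo3 at r = 0.487 and 0.397 (permutation adjusted p = 0.0139 and 0.0425), with rho of 0.482 and 0.342 (permutation adjusted p = 0.0163 and 0.0869). Their r with Foxo6 of -0.445 and -0.561 no longer passed without the 2 farthest libraries, at -0.253 and -0.378.

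**Figure D5:**
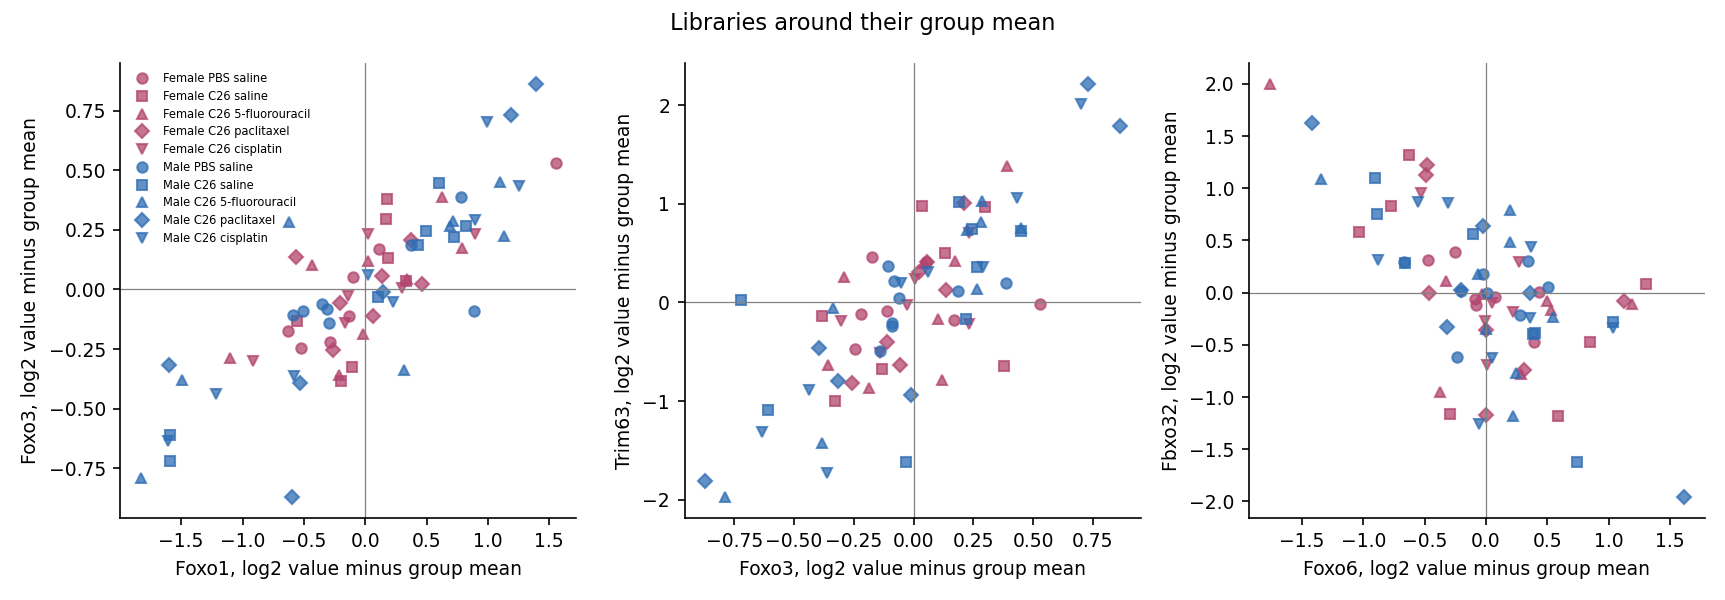
Each point is 1 library after its group's mean was subtracted, on log2 scales, for Foxo1 and Foxo3 (left), Foxo3 and Trim63 (middle) and Foxo6 and Fbxo32 (right), with colour for sex and symbol for arm. The left panel slopes up in both sexes (r = 0.711 and 0.860), and the right panel slopes down.

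Of 50 genes listed as FoxO targets in the literature, 48 were measured. The tumour raised 24 and lowered 2 in males, with a median log2 change of 0.51 against 0.00 over all genes, and raised 3 and lowered 0 in females, with a median of 0.21 against -0.01. The shares called, 54.2% in males and 6.25% in females, stand beside 26.1% and 6.7% of all genes. The male rises with the smallest p were Psmd11, a proteasome subunit (0.75 ± 0.11), Ctsl, the lysosomal protease cathepsin L (1.58 ± 0.23), Eif4ebp1, a repressor of translation (2.39 ± 0.35), and Map1lc3b, which coats autophagosomes (1.21 ± 0.18). Their adjusted p were 1.57e-07, 1.68e-07, 2.32e-07 and 4.61e-07. The 3 female rises were Map1lc3b (0.87), Eif4ebp1 (1.39) and Gadd45a, a growth arrest gene (0.89), with adjusted p = 0.00204, 0.0127 and 0.028. The male falls were Sod2 and Bcl6.

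With each drug most of the targets that passed in males were lower. The test called 0 higher and 16 lower with 5-fluorouracil, 0 and 13 with paclitaxel and 1 and 14 with cisplatin, with medians of -0.40, -0.42 and -0.42 against -0.03, -0.005 and -0.04 over all genes. These shares of 33.3%, 27.1% and 31.2% stand beside 23.3%, 31.9% and 15.9% of all genes. Ctsl fell by 1.28 ± 0.23 (SE), 1.12 ± 0.25 and 1.37 ± 0.23, Psmd11 by 0.61, 0.48 and 0.63, and Bnip3, a mitophagy gene, by 1.02, 1.09 and 1.03. Fitted with the GC slope, the paclitaxel count was 5. In females cisplatin lowered 3 targets, Map1lc3b (-0.85), Fbxo31 (-0.92) and Eif4ebp1 (-1.47), with adjusted p = 0.0137, 0.0252 and 0.0323, which is 6.25% of the list beside 1.66% of all genes. No target passed in females with 5-fluorouracil or paclitaxel, where 1.35% and 0.0% of all genes passed.

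Of 52 listed regulators of FoxO proteins, 51 were measured, and none passed in any of the 4 female comparisons. Of all genes, 6.7% passed there with the tumour, and 1.35%, 0.0% and 1.66% with 5-fluorouracil, paclitaxel and cisplatin. In males the tumour raised 8 and lowered 5, a share of 25.5% beside 26.1% of all genes. Those with the smallest p were Akt1, the kinase that phosphorylates FoxO proteins (0.81 ± 0.18, adjusted p = 0.000352), Pik3r1, a regulatory subunit of PI3-kinase (1.06 ± 0.26, adjusted p = 0.00114), Sirt3, a mitochondrial deacetylase (-0.80 ± 0.20, adjusted p = 0.00139), and Pdpk1, which activates AKT (0.56 ± 0.15, adjusted p = 0.00346). Pdpk1 and Pik3r1 fell with each drug, Pdpk1 by 0.74, 0.92 and 0.56 and Pik3r1 by 1.14, 0.96 and 0.96 for 5-fluorouracil, paclitaxel and cisplatin. In all, 4 regulators were higher and 14 lower with 5-fluorouracil, 5 and 21 with paclitaxel, and 3 and 8 with cisplatin. These shares of 35.3%, 51.0% and 21.6% stand beside 23.3%, 31.9% and 15.9% of all genes. They come from the main fit. With the GC slope in the model, 12 of the 24 counts over the target, regulator and forkhead lists moved beyond the limit set for a count. Ywhaz and Ywhah, which encode 14-3-3 proteins, were among the falls with 5-fluorouracil (-0.51 and -0.32) and paclitaxel (-0.52 and -0.32).

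Of 35 other forkhead genes 16 were measured. The tumour raised Foxk1 (0.76 ± 0.15), Foxc1 (0.58 ± 0.19) and Foxf1 (1.17 ± 0.43) and lowered Foxn3 (-0.63 ± 0.13) in males, with adjusted p = 7.37e-05, 0.0161, 0.0344 and 0.0002, and called none in females. These 4 make 25.0% of the list beside 26.1% of all genes. Cisplatin raised Foxn3 in both sexes, by 0.56 in females and 0.48 in males (adjusted p = 0.0313 and 0.00857), and lowered male Foxk1 (-0.49). Foxn2 fell with 5-fluorouracil (-0.42) and paclitaxel (-0.69) in males, and Foxp2 with paclitaxel (-1.36). The male shares were 6.25%, 12.5% and 12.5% with 5-fluorouracil, paclitaxel and cisplatin, beside 23.3%, 31.9% and 15.9% of all genes. The female shares were 0.0% with the tumour and 6.25% with cisplatin, beside 6.7% and 1.66% of all genes.

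Of 11 genes that respond to glucocorticoids, the tumour raised 5 and lowered 1 in females and raised 6 in males. This was 54.5% of the list in each sex, beside 6.7% and 26.1% of all genes. They included Fkbp5, a co-chaperone of the glucocorticoid receptor, at 2.47 ± 0.33 and 2.71 ± 0.31 (adjusted p = 2.24e-07 and 1.03e-09), and the metallothioneins Mt1 (2.85 and 4.92) and Mt2 (3.90 and 6.30). The drugs lowered Mt1 and Mt2 in males with 5-fluorouracil (-3.09 and -3.77) and cisplatin (-3.44 for Mt1), and in females with 5-fluorouracil (-2.28 and -2.65) and cisplatin (-2.89 and -3.53). Fkbp5 did not pass with any drug, with male changes of -0.63, -0.26 and -0.77. The shares of the list called were 27.3%, 9.09% and 36.4% in males with 5-fluorouracil, paclitaxel and cisplatin, beside 23.3%, 31.9% and 15.9% of all genes. In females they were 18.2%, 0.0% and 27.3%, beside 1.35%, 0.0% and 1.66% of all genes.

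The genes most like each member were ranked by Pearson r over the 73 libraries after each sex's mean was subtracted, as a description in which differences between arms weigh in. Closest to Foxo1 were Foxo3 (0.889), Cnksr3, a scaffold protein gene (0.881), Pde4d, a cyclic AMP phosphodiesterase (0.879), Plin4, a lipid droplet protein (0.861), and Klhl2 (0.846). Closest to Foxo3 were Cnksr3 (0.918), Plin4 (0.917), Foxo1, Fkbp5 (0.884) and the RNA editing enzyme Adarb1 (0.875). Cnksr3 rose with the tumour by 1.75 ± 0.42 in females and 1.93 ± 0.39 in males (adjusted p = 0.0046 and 0.000112), and, like Foxo1 and Foxo3, did not pass with any drug.

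Foxo6 was closest to Sema6c, a semaphorin (0.874), Pde4a (0.868), Fam78a (0.862), Dbp, an output gene of the circadian clock (0.857), and the receptor phosphatase Ptprs (0.856). Sema6c fell with the tumour by 0.99 ± 0.25 (SE) in females and 1.73 ± 0.24 in males and rose in males by 1.33, 1.40 and 1.39 with 5-fluorouracil, paclitaxel and cisplatin. Male Dbp fell by 2.76 ± 0.37 with the tumour and rose by 1.45, 1.12 and 1.52 with the drugs. Foxo4 was closest to Tmem11, a mitochondrial membrane protein (0.883), Pink1, a mitophagy kinase (0.868), the selenoprotein Selenow (0.866), the muscle calcium pump Atp2a1 (0.864) and Pdk2, a kinase of pyruvate dehydrogenase (0.860). Its r with the other members was 0.185 for Foxo1, 0.405 for Foxo3 and -0.065 for Foxo6, while Foxo6 stood at -0.586 with Foxo1 and -0.674 with Foxo3. The ranking was not adjusted for the GC slope, with which Foxo4 correlated within groups at r = 0.72. The part of the slope in the ranking was not tested.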

How the data were processed

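Per the labels' protocols, total RNA of gastrocnemius muscle was read from both ends. The authors deposited 1 table of log2 values per gene and library. The submitters' processing notes name the mouse build GRCm39 (mm39) and, without versions, limma, edgeR, Salmon, fastp, FastQC and MultiQC. How low genes were filtered and how library sizes were scaled is not given in the sources used here. The deposited log2 values behave as log2 of an estimated count plus 0.5 over a scaled library size (log2 CPM). Solving for the count left 85.0 to 90.7% of a library's values within 0.02 of a whole number, so these are estimates and no count test was run.

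The labels list 75 samples and the table has 74 columns. Female PBS saline replicate 8 was not analysed here, and 1 female library whose title and treatment label disagree was left out, which leaves 73 libraries in 10 groups.

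limma 3.58.1 in R 4.3.3 fitted the 10 group means to all 13856 genes (eBayes with trend, 63 residual degrees of freedom, two-sided, Benjamini-Hochberg over all genes per comparison, called under 0.05). There were 8 main comparisons, 12 other pairs within a sex and 4 sex differences. Ratios used exact permutation tests and correlations 100000 permutations within groups (Python 3.11.15, numpy 2.4.6, scipy 1.17.1). GC slopes used 10637 genes and transcript lengths came from GENCODE vM21 (GRCm38), whose coordinates are not those of the files. Promoter sequences are RefSeq's.

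The members and gene lists were chosen with earlier results of these data known. Genes named are the members, Fbxo32 and Trim63, up to 4 called genes per list and comparison with the smallest adjusted p, and the 5 genes closest to each member; Sod2, Bcl6, Bnip3 with cisplatin, Fbxo31, Pdpk1, Pik3r1, Ywhah and Ywhaz where they fall outside this were named after their values were seen. Alternatives were quantile normalization, a minimum mean of 1, 1 added on the linear scale, fits of 2 groups, quality weights, a replicate block, the GC slope as a covariate, omission of libraries of high GC slope, and omission of each library; those for the ligase correlations, the GC omission for target counts, and the block and the omissions for sex differences were chosen after seeing the data. By the limit set for pairing (r over 0.1 in every pair), replicate numbers paired the samples in female paclitaxel against C26 saline (r 0.16 to 0.80 over 7 pairs) and in none of the other 7 main comparisons. Female 5-fluorouracil against C26 saline had 5 of 7 pairs over 0.1. Its mean r was 0.38, beside 0.40 with paclitaxel, and its ratios were not tested as pairs. The pairing comes from the values, as the labels do not say what a number stands for. Exact sign-flip tests of the 6 ratios over the pairs with paclitaxel were also added after seeing the data.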

Additional observations from a re-analysis of the deposited data

Results flagged for a closer look

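In 5 of the 60 groups searched (4 members, Fbxo32 and Trim63 in 10 groups each), the highest or lowest library stood apart from the rest of its group by Dixon's test at 95%, which chance alone gives in about 5% of groups. Foxo1 in female PBS saline replicate 4 was 6.39, with the next library at 4.95. Foxo4 in female PBS saline replicate 5 was 7.90, with the next at 7.62. Foxo6 in female cisplatin replicate 4 was 2.03, with the next at 2.55. Foxo6 in male 5-fluorouracil replicate 7 was 0.59, with the next at 1.86. Fbxo32 in female 5-fluorouracil replicate 1 was 9.64, with the next at 7.74. Without the library in question, the calls of Foxo1, Foxo4 and Foxo6 in the 8 main comparisons were the same.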

How the results depend on the processing

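Of 728 alternative values for the 32 main changes of the members, 713 kept their side of the threshold and, where called, their direction. Small changes that were not called could switch sign within this count. Female Foxo3 with 5-fluorouracil, for example, was -0.04 in the main fit and 0.05 without libraries of high GC slope. The exceptions to this count follow, and the cause was not tested. The tumour changes of Foxo1, Foxo3 and Foxo6 and the male drug changes of Foxo6 kept their calls in each alternative. The replicate block changed no call of a member in the 8 main comparisons or the 4 sex differences, with for example a male Foxo6 change with paclitaxel of 1.62. For the ratios in female paclitaxel, pairing by replicate number ended the call of Foxo1 over Foxo4 (-0.68) and changed no other.

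Fits of only the 2 groups compared gave -0.92 for female Foxo1 with cisplatin, now called, and 0.31 for male Foxo4 with paclitaxel, no longer called. Quality weights added calls for female Foxo6 with cisplatin (0.80) and for the sex difference with paclitaxel in Foxo4 (0.50) and Foxo6 (1.46). With the slope in the model, male Foxo4 lost its calls with 5-fluorouracil (0.17) and paclitaxel (0.042), and without libraries of high GC slope these were 0.23 and, with the sign reversed, -0.016. That omission also called male Foxo3 with 5-fluorouracil (-0.61). It ended the calls for the ratios of male Foxo1 to Foxo3 with the tumour (0.82), female Foxo1 to Foxo4 with paclitaxel (-0.45) and cisplatin (-0.76), female Foxo1 and Foxo3 to Foxo6 with cisplatin (-1.74 and -1.28), and male Foxo1, Foxo3 and Foxo4 to Foxo6 with paclitaxel (-2.40, -1.83 and -1.63). With 1 added on the linear scale the last 3 were -1.64, -1.07 and -0.75, not called. Adjusted for GC slope, the female r was -0.35 for Foxo1 and Foxo6, no longer passing, and -0.53 for Foxo3 and Foxo6, now passing.

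Omitting each library in turn gave 0.23 to 0.39 for male Foxo4 with paclitaxel. For ratios whose call changed it gave, in females, -1.05 to -0.61 for Foxo4 over Foxo6 with 5-fluorouracil and, with cisplatin, -0.56 to -0.30 (Foxo1 over Foxo3), -0.91 to -0.55 (Foxo1 over Foxo4), -1.92 to -1.43 (Foxo1 over Foxo6), -0.36 to -0.24 (Foxo3 over Foxo4), -1.53 to -1.05 (Foxo3 over Foxo6) and -1.19 to -0.79 (Foxo4 over Foxo6). In males it gave -2.71 to -1.74, -2.04 to -1.11 and -1.59 to -0.95 for Foxo1, Foxo3 and Foxo4 over Foxo6 with paclitaxel, -1.32 to -0.83 and -1.23 to -0.77 for Foxo1 over Foxo4 with 5-fluorouracil and cisplatin, and -0.65 to -0.45 for Foxo3 over Foxo4 with cisplatin.

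Of the 24 counts of called targets, regulators and other forkhead genes, 12 moved beyond the limit set for a count with the slope in the model. Quality weights moved 11, fits of only the groups compared moved 8 and quantile normalization moved 1. Counts of FoxO targets called moved most in females. With the tumour 3 became 13 with quality weights, 7 with the slope in the model, 6 in the fit of 2 groups and 7 without libraries of high slope. With 5-fluorouracil 0 became 6 with quality weights and 1 with quantile normalization, with the slope or without those libraries. With paclitaxel 0 became 3 with quality weights, and with cisplatin 3 became 16 with quality weights, 10 in the fit of 2 groups and 11 without those libraries. In males the paclitaxel count of 13 became 5 with the slope and 7 without those libraries. Depth limits Foxo6 most, at 15 to 65 estimated counts in male C26 saline.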
